A study of Rattus norvegicus with 82 samples.

Results

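The dorsal raphe (DR) and the locus coeruleus (LC) are the brainstem nuclei that hold most serotonin and noradrenaline neurons projecting to the forebrain. All 12 arrays whose titles carry the region code DR were set against all 12 with the code LC, 24 of the 82 arrays in the series, and gene expression was compared between the regions with treatment and time of day as covariates. Total RNA from rat brain had been measured on arrays of 31099 probe sets. Each region had 4 arrays of ADX, 4 of pADX and 4 of Sham rats, 2 of each at AM and 2 at PM, so that 12 groups of region, treatment and time held 2 arrays each. By common usage ADX means that the adrenal glands were removed and Sham that rats had the surgery without the removal. The labels do not explain the p of pADX, and they give no strain, sex or age. The source name calls every DR and LC sample frontal cortex, so the region was taken from the title code and the description. The labels do not say whether the arrays came from separate animals or from pools, and p-values measure the spread between arrays, which may be technical.

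Serotonin neurons make their transmitter from tryptophan through tryptophan hydroxylase and aromatic amino acid decarboxylase (Ddc), take it back up through the transporter Slc6a4, and depend on the transcription factor Fev. Noradrenaline neurons make theirs from tyrosine through tyrosine hydroxylase (Th), Ddc and dopamine beta-hydroxylase (Dbh), take it up through Slc6a2, and depend on the homeodomain protein Phox2a. Both neuron types load vesicles through Slc18a2 and use tetrahydrobiopterin, made from GTP by Gch1, as the cofactor of their hydroxylases. Tph2 and Lmx1b were not analysed here, since no probe set carried their symbol alone.

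The sequences before the start of 3 genes that separated the regions are shown because each holds letters that a factor of these neurons or of peptide genes is known to read. They come from RefSeq on build GRCr8, 250 bases up to the start, in the sense of the gene. In Dbh, the gene with the largest difference, at chr3:30886078-30886327 on the plus strand, capitals mark ATTA, the core letters that homeodomain proteins such as Phox2a read. In Cartpt, at chr2:32991236-32991485 on the minus strand, and in Ucn, at chr6:30957836-30958085 on the plus strand, both genes of neuropeptides higher in DR, capitals mark TGACGTCA, the cAMP response element.
Dbh: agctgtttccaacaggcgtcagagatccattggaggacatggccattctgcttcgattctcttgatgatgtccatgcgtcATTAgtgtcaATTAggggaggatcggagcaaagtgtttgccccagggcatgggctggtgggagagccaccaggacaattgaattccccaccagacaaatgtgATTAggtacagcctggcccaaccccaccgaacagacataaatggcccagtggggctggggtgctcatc
Cartpt: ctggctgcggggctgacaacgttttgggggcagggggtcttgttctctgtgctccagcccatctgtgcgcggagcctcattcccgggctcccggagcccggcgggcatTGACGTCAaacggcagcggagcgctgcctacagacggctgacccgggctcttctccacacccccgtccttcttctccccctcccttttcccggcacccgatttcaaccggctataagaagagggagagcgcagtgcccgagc
Ucn: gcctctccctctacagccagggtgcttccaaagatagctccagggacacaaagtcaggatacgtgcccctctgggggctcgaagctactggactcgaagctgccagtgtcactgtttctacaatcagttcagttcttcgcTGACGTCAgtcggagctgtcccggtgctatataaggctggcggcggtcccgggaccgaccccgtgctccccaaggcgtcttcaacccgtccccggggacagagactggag
ATTA, read on both strands, occurred 3 times in the Dbh window, 170 to 68 bases before the start, but 59.7% of 27457 RefSeq windows of 300 bases (250 before the start and 50 after) held it. TGACGTCA lay 142 bases before the start in Cartpt and 110 in Ucn, and 1.91% of windows held it. Of the 15 neuropeptide genes that differed between the regions 11 had a window, and 3 of these held TGACGTCA (Cartpt, Ucn and Vgf). A match is a description of the letters and not of binding.

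Values are log2 of quantile normalized signal with a floor at 4. A group mean with arrays at the floor is only an upper bound, and the fold is then written "at least". Across 31042 probe sets limma called 1619 (5.22%) at a Benjamini-Hochberg adjusted p of 0.05, of which 795 were higher in DR (2.56%) and 824 lower (2.65%). Most of the differences were small: 48 of the called probe sets (0.155%) differed by 1 log2 unit or more, 23 higher in DR (0.0741%) and 25 lower (0.0805%). The 12 DR values and the 12 LC values did not overlap for 60 probe sets (0.193%). By 1 probe set per gene, 975 of 14217 genes were called (6.86%), 373 higher in DR (2.62%) and 602 lower (4.23%). The shares called in the gene lists below are descriptions, since the lists were chosen with earlier results of these data known. Among the 31042 probe sets, 3384 were at the floor on all 24 arrays and could not be called.

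Several properties of the arrays moved with region. The mean signal as deposited, trimmed by 2% at each end, stood at a common value of 150 in 2 of 12 DR and 7 of 12 LC arrays and lower in the others (down to 83.7 in DR and 91.7 in LC). No ADX array of either region was at that value. The ratio of 3' to 5' beta-actin signal, which reflects RNA length and labelling, ran from 3.12 to 6.03 in DR (median 4.23) and from 3.07 to 3.95 in LC (median 3.51). The same ratio for GAPDH had close medians, 1.21 in DR (1.04 to 1.40) and 1.19 in LC (1.14 to 1.32). The split of calls moved with the scaling. Without normalization 68 probe sets were higher in DR and 3710 lower, about a median of -0.13, against 795 and 824 after it. The part of scaling and RNA quality in single results was not tested beyond fits with the scaling state or the beta-actin ratio as a term. With a scaling term 486 probe sets were called and with a beta-actin term 279, and 44 of the 48 large differences kept their call in each.

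Among the arrays 2 stood apart in marker genes. DR Sham AM replicate 2 had a summed linear signal of 2816 over 6 cerebellum markers, against at most 538.8 in the other DR arrays and 477.7 in LC, with the granule cell gene Gabra6 and the Purkinje cell gene Pcp2 at 9.24 and 9.52. LC ADX PM replicate 1 had 4386 over 6 choroid plexus and ependyma markers, against at most 1010 in DR and 1135 in the other LC arrays. Most of that sum was the choroid plexus gene Ttr alone (values below), so it does not show that the other markers were raised. Without both arrays limma called 1339 probe sets, and all 48 large differences were still called. Of the 77 list and named genes called below, 72 kept their call without both; Sncg, Oprk1, Gabre, Pax8 and Kcnk2 lost it. The cortical gene Tbr1 was at the floor on all 24 arrays. The summed signal of 4 cortex markers, Tbr1 among them, ranged from 116.9 to 167.3 in DR and from 128.3 to 193.9 in LC.

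Serotonin neuron genes were higher in DR, but the LC arrays also held them. Of 12 measured genes of this list 7 were higher in DR and 0 lower (58.3% called, against 6.86% of all genes). The median difference was 0.50 log2 units, against a median of -0.00 over 14217 genes. Slc6a4, the serotonin transporter, had 9.84, 10.70 and 11.36 (lowest, median, highest) in DR, against 8.11, 9.66 and 10.65 in LC. The ranges overlapped, with LC Sham PM replicate 2 the highest LC array and LC Sham AM replicate 1 the lowest. Slc6a4 was 2.07-fold higher in DR (log2 difference 1.05, SE 0.24, limma adjusted p = 0.0132). Its call was lost with the scaling term (0.97, adjusted p = 0.116) and with the beta-actin term (1.12, adjusted p = 0.0835).

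Fev, the transcription factor that specifies serotonin neurons, had 6.56, 6.89 and 7.18 in DR, against 4.98, 5.89 and 6.61 in LC, and was 2.02-fold higher in DR (1.02, SE 0.15, adjusted p = 0.000427). The highest LC value reached just into the range of DR. Gchfr, the protein through which phenylalanine and tetrahydrobiopterin regulate Gch1, had 8.24, 8.60 and 9.11 in DR, against 7.02, 7.53 and 8.15 in LC. Its arrays did not overlap, and it was 2.21-fold higher in DR (1.14, SE 0.14, adjusted p = 7.53e-05). Slc22a3, a low-affinity monoamine transporter, was higher in DR too (SE 0.16, adjusted p = 0.000959), with 4.07, 5.26 and 5.76 in DR and 7 of 12 LC arrays at the floor. The zinc finger factors Gata2 (0.65) and Gata3 (0.48) and the monoamine oxidase gene Maob (0.33) were higher as well. The calls of Gata3 and Maob were lost with either term, that of Gata2 with the beta-actin term, and that of Gata3 when any of 9 single arrays was left out. The autoreceptor genes Htr1a (0.51, adjusted p = 0.0761) and Htr1b (0.01, adjusted p = 1) did not pass, nor did Nkx2-2, Pts and Qdpr. Htr1a and Nkx2-2 each passed without either of 2 single arrays, for Nkx2-2 DR Sham AM replicate 2 among them (0.27, adjusted p = 0.0417). Pts and Qdpr each passed, as lower in DR, without 1 single array.

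Against the mean of 5 forebrain regions, whose arrays serve both comparisons, 42.4% of probe sets differed in DR and 43.5% in LC. Slc6a4 was 6.61 log2 units higher in DR arrays and 5.56 higher in LC arrays. Fev stood 2.79 above the forebrain in DR and 1.77 above it in LC, and Gchfr 4.03 and 2.89. Of the 12 serotonin neuron genes 9 were above the forebrain in DR (28.5% of all genes were) and 8 in LC (31.8%). In these bulk samples fewer cells of a type and less RNA per cell cannot be told apart.

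**Figure D1:**
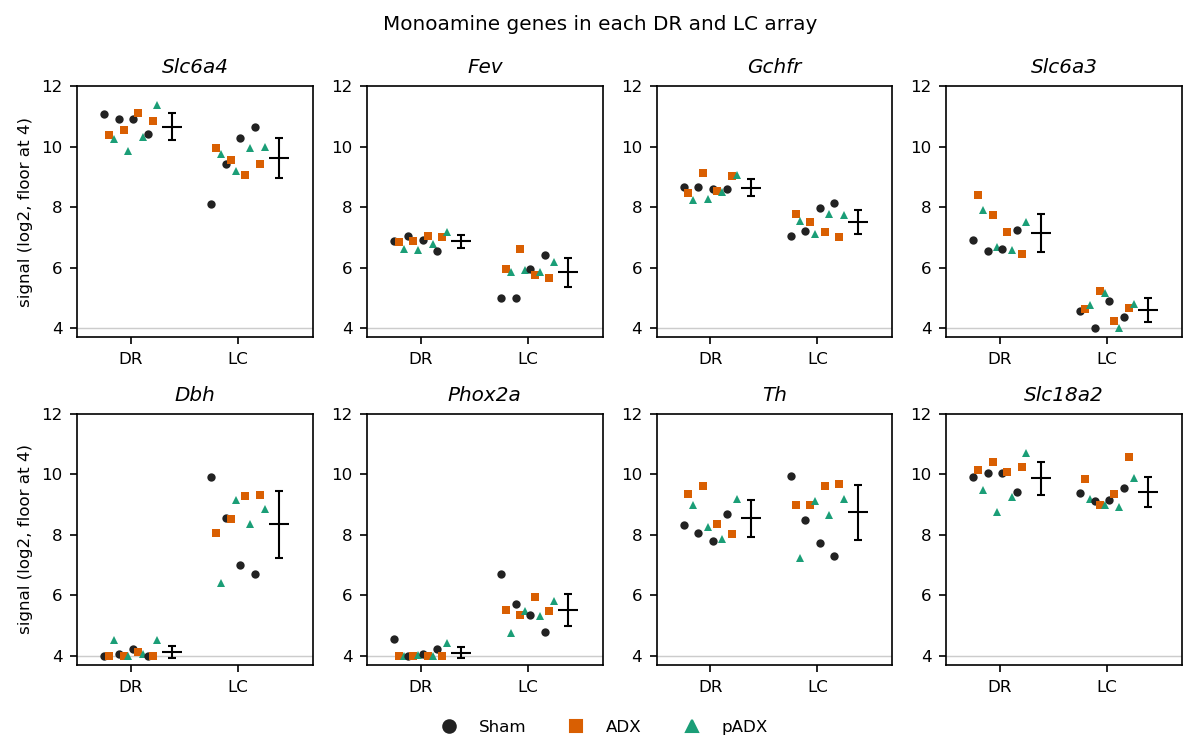
Log2 signal (floor at 4) of 8 monoamine genes in each of 12 DR arrays and 12 LC arrays, with DR to the left of LC; symbols mark Sham, ADX and pADX, and the bars give the mean and SD of each region. Slc6a4 and Fev overlap between the regions, Dbh separates them by 4.22 log2 units, and the ranges of Th overlap.

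Among noradrenaline neuron genes Dbh separated the regions most. Of 19 measured genes of this list 7 were lower in DR and 2 higher (47.4% called, against 6.86% of all genes). The median was -0.10, and 3 genes were at the floor on all 24 arrays. Dbh, the enzyme that turns dopamine into noradrenaline, had 4.0, 4.03 and 4.52 in DR, with 6 arrays at the floor, against 6.42, 8.54 and 9.90 in LC. It was at least 18.6-fold lower in DR (-4.22, SE 0.33, adjusted p = 1.09e-07). DR stood at -0.00 from the forebrain mean and LC at 4.21 above it. Within LC the spread was wide: LC pADX AM replicate 1 (6.42), LC Sham PM replicate 2 (6.71) and LC Sham AM replicate 2 (7.0) lay below the other 9 arrays, which began at 8.05.

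Phox2a, the homeodomain factor of noradrenaline neurons, had 4.0, 4.0 and 4.56 in DR (7 arrays at the floor), against 4.76, 5.47 and 6.72 in LC, at least 2.66-fold lower in DR (-1.41, SE 0.16, adjusted p = 2.72e-05). Galanin (Gal), a peptide that LC neurons release together with noradrenaline, had 6.80, 7.53 and 8.20 in DR, against 7.13, 8.71 and 9.32 in LC. It was 1.92-fold lower in DR (-0.94, SE 0.22, adjusted p = 0.0163), although the ranges overlapped; with the beta-actin term the adjusted p was 0.112. Cyb561, which supplies electrons to Dbh in the vesicle, was 1.58-fold lower in DR (-0.66, adjusted p = 0.000157) with no overlap. Npy (-0.69), the oxidase gene Maoa (-0.39) and the noradrenaline transporter gene Slc6a2 (-0.50; 10 DR and 3 LC arrays at the floor) were lower too. Slc6a2 lost its call with either term, Maoa with the scaling term and Npy with the beta-actin term. Slc6a2 also no longer passed without any 1 of the 4 ADX AM arrays of both regions (highest adjusted p = 0.0546). The list members higher in DR were Cartpt (below) and the neurotrophic receptor gene Ret (0.35), whose call was lost with the beta-actin term and on the values as deposited.

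The genes of amine synthesis and storage that both neuron types use were higher in DR where they were called. Ddc had 9.91, 10.53 and 10.94 in DR, against a lowest of 9.44 and a median of 9.68 in LC, and was 1.69-fold higher in DR (0.76, SE 0.10, adjusted p = 0.000162); the highest LC value lay above the lowest DR value. Gch1 was 1.53-fold higher in DR (0.62, adjusted p = 0.00905; call lost with the scaling term). Th, a gene of noradrenaline and not of serotonin synthesis, had 7.79, 8.35 and 9.60 in DR, against 7.24, 8.98 and 9.94 in LC. These ranges overlapped nearly in full (-0.20, SE 0.30, adjusted p = 0.819). Slc18a2, the vesicular transporter, did not pass either (0.46, adjusted p = 0.193), although 1 of its other probe sets was higher in DR. The wider list of shared monoamine genes, which also holds the dopamine genes Slc6a3 and Pitx3, had 4 of 11 measured genes higher in DR (Ddc, Gch1, Slc6a3, En2) and 2 lower (Sncg, Calb2). This was 54.55% called, against 6.86% of all genes. En2 and Sncg lost their calls with either term. The lack of a call does not show that Th and Slc18a2 were equal.

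Slc6a3, the dopamine transporter, was higher in DR, a region known to hold a group of dopamine neurons. It had 6.45, 7.03 and 8.41 in DR, against 4.0, 4.64 and 5.23 in LC, where 2 arrays were at the floor, and was at least 5.82-fold higher in DR (2.54, SE 0.21, adjusted p = 2.59e-07), with 1 of its 2 probe sets called. The mean in DR was 7.14 and that in the hypothalamus 7.69. The highest DR arrays were ADX AM replicate 1 (8.41) and pADX AM replicate 1 (7.90). Of 4 dopaminergic markers this was the 1 called; Th and Aldh1a1 (0.06) did not pass, and Pitx3 was at the floor on all 24 arrays. The summed signal of the 4 ranged from 702.5 to 1535 in DR and from 624.0 to 1498 in LC.

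**Figure D2:**
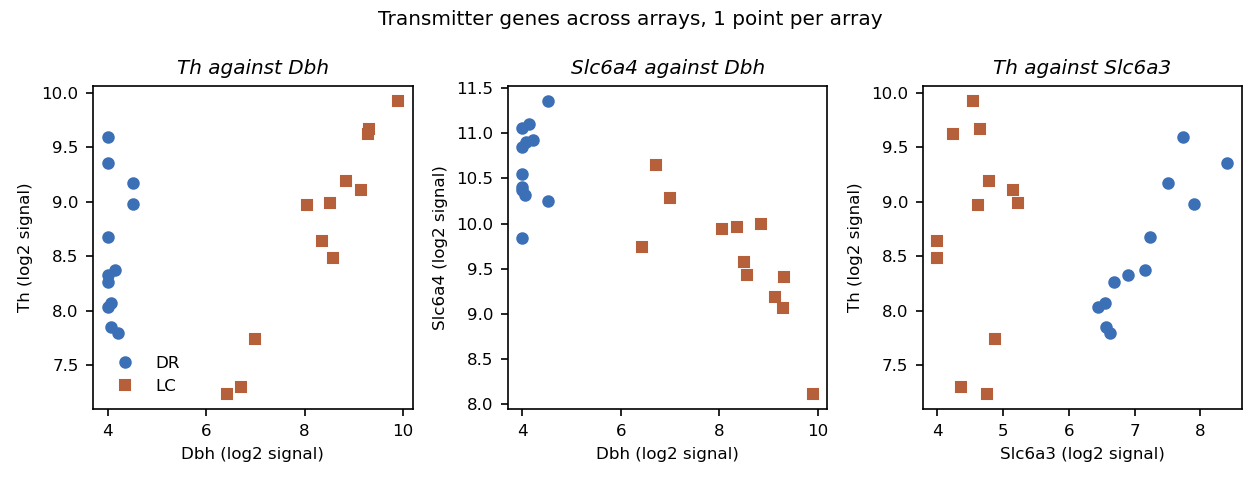
Log2 signal of Th against Dbh, Slc6a4 against Dbh, and Th against Slc6a3, with 1 point per array (DR circles, LC squares). Among LC arrays Th is high and Slc6a4 low where Dbh is high, and among DR arrays Th is high where Slc6a3 is high.

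How far these genes varied together was examined over the 12 arrays of a region with treatments pooled, in 10 relations with 100000 permutations each and Benjamini-Hochberg adjustment over the 10. Of the 10, 3 were set in the design (Dbh with Slc6a2, Th and Slc18a2 in LC) and 7 were added after the values were seen. The p-values of the 7 do not account for that choice. In DR, Th followed Slc6a3 (Pearson r = 0.909, Spearman rho = 0.902, permutation p = 7e-05, adjusted p = 0.000233; r = 0.946 without the 2 arrays farthest from the median of Slc6a3, 0.904 in the 10 arrays off the common scale). Slc6a4 varied with Fev (r = 0.873, rho = 0.846, permutation p = 0.00027, adjusted p = 0.000675, with r = 0.793 without 2 arrays and 0.917 off the common scale). Slc6a4 also varied with Slc18a2 (r = 0.795, rho = 0.608, permutation p = 0.00175, adjusted p = 0.00292, with r = 0.533 without 2 arrays and 0.788 off the common scale).

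In LC the largest gap in Dbh lies between the 3 lowest arrays and the other 9, so each value is followed by r in those 9 and, as a check on scale, in the 7 arrays at the common scale. Th followed Dbh (r = 0.967, rho = 0.944, permutation p = 1e-05, the smallest the permutations can give, adjusted p = 5e-05; 0.847 in the 9, 0.985 in the 7, 0.926 without the 2 farthest). Gal did so too (r = 0.966, rho = 0.951, permutation p = 1e-05, adjusted p = 5e-05; 0.887, 0.984 and 0.949). Phox2a (r = 0.828, rho = 0.769, adjusted permutation p = 0.00068; 0.728, 0.894 and 0.663) and Slc6a2 (r = 0.781, rho = 0.810, adjusted permutation p = 0.00411; 0.560, 0.912 and 0.627) were less close. Slc6a4 ran against Dbh (r = -0.774, rho = -0.783, permutation p = 0.00247, adjusted p = 0.00353; -0.854, -0.787 and -0.844), so that the LC arrays with most Dbh signal had least serotonin transporter signal. No relation of Slc18a2 with Dbh was detected (r = 0.219, rho = 0.210, permutation p = 0.5, with r = 0.191, 0.104 and 0.262). With 12 arrays this does not show that there was none. For Slc6a4 with Fev in LC, r was 0.657 (rho = 0.643, adjusted permutation p = 0.0237). This r fell to 0.281 without the 2 arrays farthest from the median of Slc6a4, and was 0.791 in the 7 arrays at the common scale.

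Neuropeptide genes formed the list with the most clear separations. Of 29 measured, 5 were higher in DR and 10 lower (51.7% called, against 6.86% of all genes), and for 9 the arrays did not overlap (0.302% of all genes). Cartpt, the precursor of the cocaine- and amphetamine-regulated transcript peptide, had 8.60, 9.41 and 10.37 in DR, against 6.21, 6.65 and 7.35 in LC. It was 7.51-fold higher in DR (2.91, SE 0.16, adjusted p = 1.15e-09). Vip, vasoactive intestinal peptide, had 7.26, 7.67 and 8.53 in DR, against 4.95, 5.36 and 6.25 in LC, 5.12-fold higher in DR (2.36, SE 0.15, adjusted p = 5.05e-09). DR stood at 0.01 from the forebrain mean for Vip and LC 2.35 below it.

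Ucn, urocortin, a relative of corticotropin-releasing hormone that is made in the Edinger-Westphal region next to the DR, had 5.08, 5.74 and 6.79 in DR, against 4.0, 4.26 and 4.72 in LC. It was at least 2.91-fold higher in DR (1.54, SE 0.16, adjusted p = 4.56e-06; 1 LC array at the floor). Cck, cholecystokinin, was 1.75-fold higher in DR (0.81, adjusted p = 0.000909), and Trh, thyrotropin-releasing hormone, 1.95-fold on values bounded by the floor (0.97, adjusted p = 0.00335; 9 LC arrays at the floor and 1 DR array). All 5 calls held with the scaling and with the beta-actin term.

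Among peptides lower in DR, Nmb, neuromedin B, had 4.60, 5.03 and 5.49 in DR, against 6.75, 7.48 and 8.23 in LC, 5.22-fold lower in DR (-2.38, SE 0.16, adjusted p = 6.76e-09). Its relative Grp, gastrin-releasing peptide, was 2.17-fold lower (-1.12, adjusted p = 1.12e-05). Calca, the gene of calcitonin and of the calcitonin gene-related peptide, had 4.0, 5.08 and 5.64 in DR, against 5.77, 6.35 and 7.61 in LC (-1.53, SE 0.23, adjusted p = 0.000522), and 2 of its 3 probe sets were called in this direction. Crh, corticotropin-releasing hormone, had 4.0, 4.96 and 5.60 in DR, against 6.01, 6.34 and 6.81 in LC, at least 2.74-fold lower in DR (-1.46, SE 0.15, adjusted p = 4.15e-06; 1 DR array at the floor). Pmch, melanin-concentrating hormone, was 2.23-fold lower (-1.16, adjusted p = 2.59e-07) and Penk, the enkephalin precursor, 1.69-fold (-0.75, adjusted p = 2.88e-07), both without overlap. Vgf (-0.57) was also lower, as were Gal and Npy above. Hcrt, hypocretin (-0.74, adjusted p = 0.044), passed too but lost its call when any of 17 single arrays was left out, with the scaling term (adjusted p = 0.158) and with the beta-actin term (-0.46, adjusted p = 0.485). Among receptors for such signals, of 35 neuropeptide and hormone receptor genes Avpr1a (0.64), Mc4r (0.71) and the mineralocorticoid receptor gene Nr3c2 (0.33) were higher in DR and Oprk1 (-0.42) lower (11.4% called, against 6.86% of all genes), and none of these 4 calls held with the beta-actin term. Nr3c1, which encodes the glucocorticoid receptor, did not pass (0.06, adjusted p = 0.685).

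**Figure D3:**
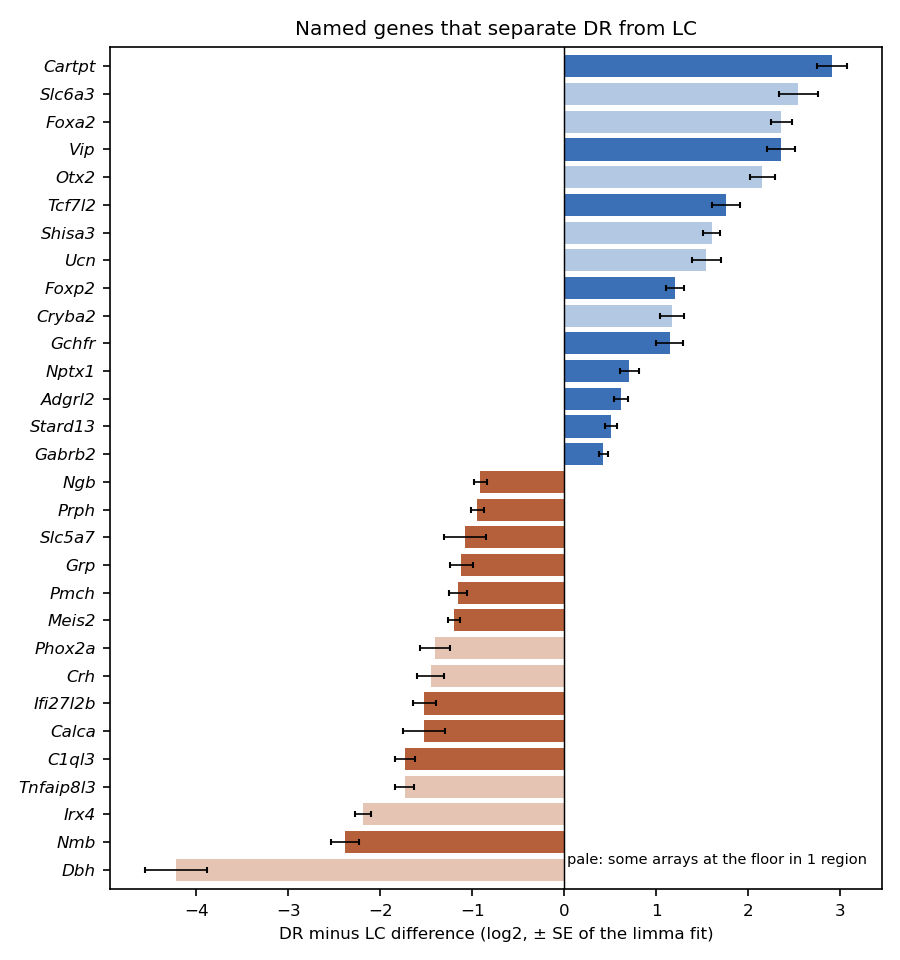
DR minus LC difference in log2 units with its SE for the 15 named genes highest in DR and the 15 lowest in DR. Pale bars mark genes with arrays at the floor in 1 region, whose difference is a lower bound of its size; the bars run from 2.91 for Cartpt down to -4.22 for Dbh.

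The named genes are the 15 with the largest difference in each direction among called genes whose arrays did not overlap, so the lack of overlap is part of their choice. Of the genes outside the transmitter and peptide lists, patterning factors led those higher in DR. Foxa2, a forkhead factor of the floor plate and of midbrain neurons, had 5.68, 6.38 and 7.22 in DR and was at the floor on all 12 LC arrays, at least 5.12-fold higher in DR (2.36, SE 0.12, adjusted p = 1.67e-10). Otx2, the homeobox gene that sets the boundary of midbrain and hindbrain during development, had 5.98, 6.46 and 6.92 in DR, against 4.0, 4.11 and 4.86 in LC (6 arrays at the floor). It was at least 4.44-fold higher in DR (2.15, SE 0.14, adjusted p = 6.59e-09), while its other probe set was not called.

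Tcf7l2, a transcription factor of the Wnt pathway, had 7.98, 9.27 and 9.49 in DR, against 6.81, 7.34 and 7.63 in LC, 3.39-fold higher in DR (1.76, SE 0.15, adjusted p = 3.92e-07), and all 5 of its probe sets were called in this direction. Foxp2, a forkhead factor, was 2.30-fold higher in DR (1.20, adjusted p = 8.25e-08). Shisa3, which dampens Wnt and FGF signalling, was at least 3.03-fold higher (1.60, adjusted p = 2.00e-09; all 12 LC arrays at the floor), and the crystallin gene Cryba2 at least 2.25-fold (1.17; 2 LC arrays at the floor). Smaller differences were found for the synaptic pentraxin gene Nptx1 (0.70), the adhesion receptor gene Adgrl2 (0.61; 2 of 2 probe sets), Stard13 (0.50) and the GABA-A receptor subunit gene Gabrb2 (0.42). On the values as deposited Stard13 and Gabrb2 lost their calls.

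Lower in DR was Irx4, an Iroquois homeobox gene, with 4.0, 4.07 and 4.79 in DR (5 arrays at the floor), against 6.11, 6.38 and 6.69 in LC. It was at least 4.55-fold lower in DR (-2.18, SE 0.09, adjusted p = 6.01e-12), and its other probe set was not called. Meis2, a homeobox cofactor of Hox proteins, had 7.54, 7.97 and 8.29 in DR, against 8.96, 9.15 and 9.38 in LC (-1.20, SE 0.07, adjusted p = 1.19e-09). C1ql3, a secreted synaptic protein of the C1q family, had 6.12, 6.66 and 7.28 in DR, against 8.12, 8.37 and 8.71 in LC (-1.73, SE 0.11, adjusted p = 4.81e-09), with 1 of 2 probe sets called; both regions lay below the forebrain mean, DR by -3.11 and LC by -1.37. Tnfaip8l3, a phosphoinositide transfer protein, was at least 3.33-fold lower in DR (1 DR array at the floor), the interferon-inducible Ifi27l2b 2.87-fold and Ngb, the oxygen-binding neuroglobin, 1.88-fold with both probe sets called.

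Homeobox and patterning genes as a list held 11 genes higher in DR and 6 lower among 52 measured (32.7% called, against 6.86% of all genes; median 0.00). Besides Otx2 and the serotonin genes Fev, Gata2 and Gata3, those higher in DR were Pou4f1 (1.04; 7 LC arrays at the floor), Lhx9 (0.81), Barhl1 (0.73; 9 LC arrays and 1 DR array at the floor), Pax8 (0.73), En2 (0.70), Emx2 (0.45; 12 LC and 2 DR arrays at the floor) and Pou3f3 (0.18). En2 has a known place in the midbrain and anterior hindbrain and stood 3.50 above the forebrain in DR and 2.80 above it in LC. Lower in DR beside Phox2a and Meis2 were Mab21l1 (-0.76), Meis1 (-0.54), Pbx3 (-0.43) and Irx3 (-0.28). The list does not hold Irx4 and Foxa2, named above. None of its measured Hox genes was called, nor were Irx1, Irx2 and Irx5. With the beta-actin term 4 of the 11 higher calls and 5 of the 6 lower calls remained. Pax8 and Pou3f3 each lost their call when any of 10 single arrays was left out, and Pou3f3 turned negative on the values as deposited.

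**Figure D4:**
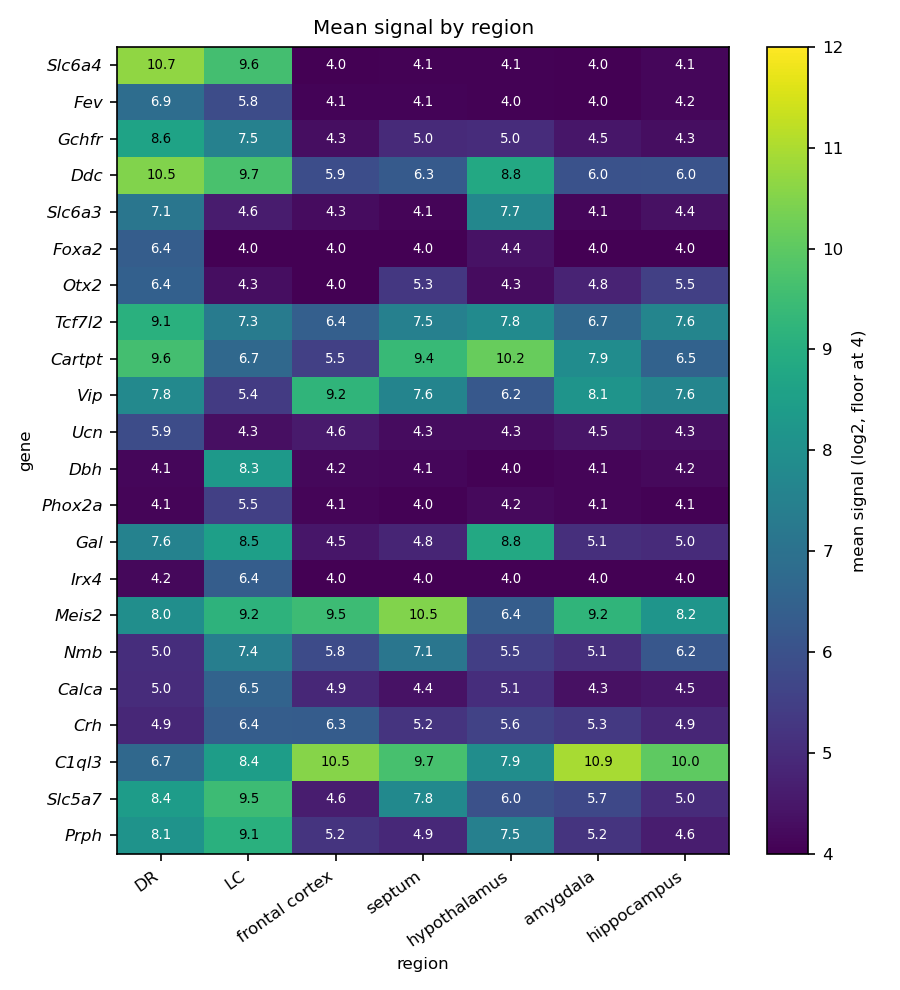
Mean log2 signal (floor at 4) of 22 genes in DR, LC and the 5 forebrain regions, 1 row per gene. Slc6a4 is at 10.66 in DR and 9.61 in LC and near the floor elsewhere, whereas Dbh and Irx4 average 8.34 and 6.37 in LC and lie near the floor in DR and the forebrain regions.

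Of the fast transmitter genes 3 of 12 were lower in DR and 0 higher (25.0% called, against 6.86% of all genes; median -0.28). Slc5a7, the choline transporter of cholinergic neurons, had 6.50, 8.63 and 9.16 in DR, against 9.17, 9.51 and 9.65 in LC (-1.07, SE 0.23, adjusted p = 0.0088; adjusted p = 0.105 with the beta-actin term). DR ADX PM replicate 1 (6.50) and DR Sham PM replicate 1 (7.02) were the lowest. The cholinergic markers Chat (-0.73, adjusted p = 0.0894) and Slc18a3 (-0.58, adjusted p = 0.0746) did not pass, so 1 of 3 was called, and their summed signal ranged from 128.4 to 733.9 in DR and from 727.2 to 1026 in LC. The GABA genes Slc32a1 (-0.41, adjusted p = 0.00272) and Gad1 (-0.22, adjusted p = 0.0329) were lower in DR as well, but the call of Gad1 was lost with either term and when any of 10 single arrays was left out. Slc17a6, the glutamate transporter of brainstem neurons, stood at 0.19 (adjusted p = 0.152) and Slc17a7 at -0.54 (adjusted p = 0.0587). Without DR Sham AM replicate 2, the array with high cerebellum signal, limma called both (0.24, adjusted p = 0.0441, and -0.62, adjusted p = 0.0234). Without both arrays that stood apart, Slc17a7 was called (adjusted p = 0.0345) and Slc17a6 was not (adjusted p = 0.055).

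Prph, peripherin, a neurofilament of neurons with peripheral axons, had 7.59, 8.13 and 8.38 in DR, against 8.91, 9.04 and 9.34 in LC, 1.93-fold lower in DR (-0.95, SE 0.07, adjusted p = 4.97e-08). The other neurofilament genes Nefl (0.14), Nefm (0.26) and Nefh (0.10) did not pass. Of 15 genes in a list of neurofilament and large axon genes 2 were lower in DR, Prph and Sncg (13.3% called, against 6.86% of all genes). The call of Sncg was lost with either term. Prph and Calca are also markers of primary sensory neurons, of which Pou4f1 was higher in DR and Isl1 did not pass. The summed signal of these 4 ranged from 289.1 to 423.0 in DR and from 589.0 to 813.8 in LC. Most of it was Prph (linear means of 280.5 in DR and 539.1 in LC), so the sum mainly repeats the difference of Prph. The part of these 4 markers in other results was not tested.

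Calls among receptor and ion channel genes are read against 6.86% called over all genes. Of 14 serotonin receptor genes limma called 0 (3 at an unadjusted p under 0.05), of 8 adrenergic receptor genes 0 (1 unadjusted), of 23 sodium and calcium channel genes 0 (3 unadjusted) and of 19 glucocorticoid-induced genes 0 (3 unadjusted). Of 20 GABA and glycine receptor genes (10% called), with the GABA-B genes Gabbr1 and Gabbr2 among them, Gabrb2 was higher in DR and Gabre lower (-0.66, adjusted p = 0.0429). The call of Gabre was lost when any of 19 single arrays was left out. Potassium channel genes gave 5 higher in DR (Kcnk2, Kcnc1, Kcnd3, Kcnab1 and Kcnj16, from 0.18 to 0.32) and 1 lower (Kcnip4, -0.23) of 43 measured (14.0% called, 16 at an unadjusted p under 0.05), and with the scaling or the beta-actin term none of the 6 was called.

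**Figure D5:**
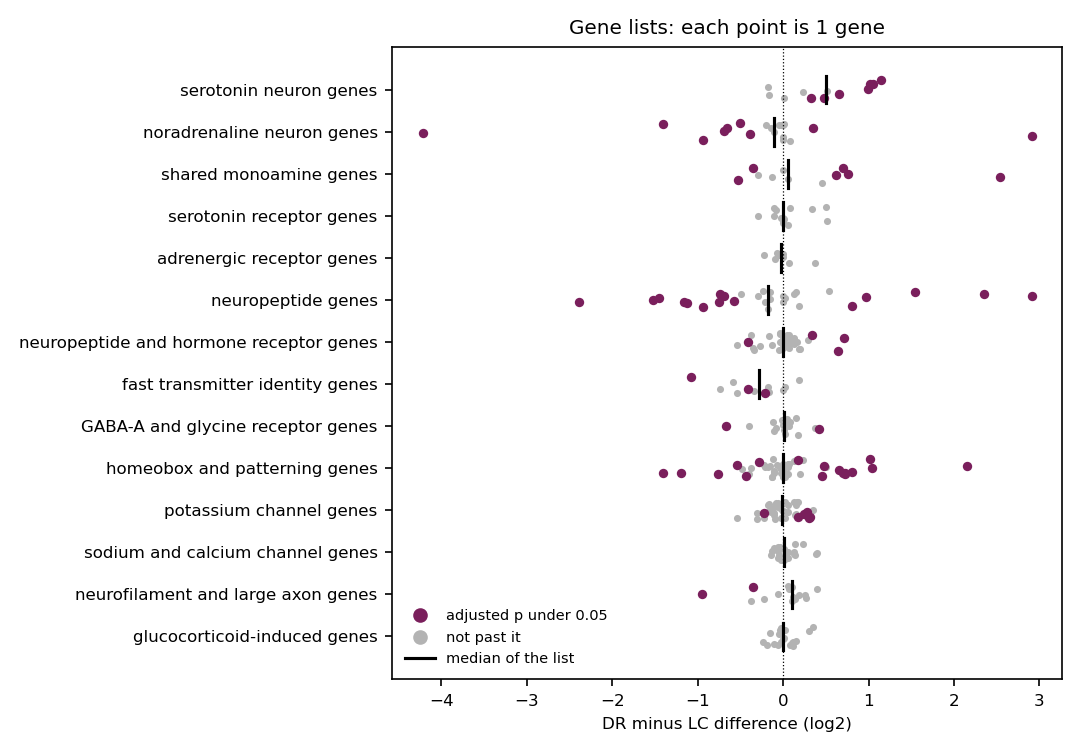
DR minus LC difference in log2 units of each measured gene in 14 lists; dark points passed an adjusted p of 0.05 and the vertical strokes are list medians. The neuropeptide genes reach from -2.38 to 2.91, while serotonin and adrenergic receptor genes have no dark point.

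Glial, vascular and other marker lists gave single calls or none, which at 6.86% called over all genes says little about lists of this size. No oligodendrocyte (0 of 7 called, summed signal 16820 to 21710 in DR and 18620 to 21600 in LC), microglia (0 of 6), endothelial (0 of 5), meningeal (0 of 5), cerebellum (0 of 6), cortex (0 of 4) or blood marker (0 of 2) passed in limma; at an unadjusted p under 0.05 there were 1 endothelial and 2 cortex markers and 0 of the others. The cortex marker Slc17a7 passed without DR Sham AM replicate 2, as given above. The astrocyte filament gene Gfap was 1.45-fold lower in DR (-0.53, SE 0.08, adjusted p = 0.000641), the 1 of 6 astrocyte markers called, and the summed signal of the 6 ranged from 4859 to 6412 in DR and from 6029 to 7295 in LC. The choroid plexus gene Ttr had 4.10, 5.15 and 6.05 in DR, against 5.04, 6.45 and 11.92 in LC (-2.19, SE 0.59, adjusted p = 0.0357). Without LC ADX PM replicate 1, the array at 11.92, Ttr stood at -1.77 (adjusted p = 0.0246), and its call was lost without any 1 of 10 other arrays, with the scaling term (adjusted p = 0.112) and with the beta-actin term (adjusted p = 0.208). The other 5 choroid and ependyma markers did not pass, and Kl was at the floor on all 24 arrays.

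The difference between the regions was then tested for change with treatment and with time of day. The interaction of region with treatment passed for 2 of 31042 probe sets (0.00644%), with 2198 at an unadjusted p under 0.05. Disp3, a membrane protein related to patched, averaged 4.19 in DR and 5.42 in LC of ADX rats, 5.03 and 4.44 in pADX, and 5.34 and 4.74 in Sham (n = 4 arrays each), so that the sign in ADX was opposite to that in the other treatments (limma adjusted p = 0.00462). The other was a probe set with no gene symbol and low signal. Disp3 was near the floor of 4 too, with 1 DR array of ADX rats at it. At a floor of 32 no probe set passed, Disp3 included, nor did any with same-numbered arrays of the regions fitted as blocks. Without single arrays the count of probe sets that passed ranged from 1 to 23, with 23 without DR pADX PM replicate 2 and 10 without DR Sham PM replicate 1. By time of day 0 passed in limma (0%), with 1423 at an unadjusted p under 0.05 and a smallest adjusted p of 0.344. Within single treatments the differences of Dbh were -4.76 in ADX, -3.92 in pADX and -3.98 in Sham, and those of Cartpt 2.90, 3.15 and 2.68. Slc6a4 stood at 1.22, 0.72 and 1.21. In ADX, where no array of either region was at the common scale, 11 of the 48 large differences passed with 4 arrays a region.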

How the data were processed

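Per the values themselves, what the authors deposited is a linear intensity for every probe set on every array. How these intensities were computed and scaled is not stated in the labels. They were quantile normalized over all 82 arrays, floored at 16 and log2 transformed, so that the floor is 4. Among the 24 arrays 27.5% of values were at it. After removal of 57 control probe sets, 31042 were tested with no filter on signal. The platform annotation gave a single symbol to 20826, several to 436 and none to 9780; RefSeq (GRCr8) held 20758 by gene identifier. The probe set with the highest mean over the 24 arrays stands for its gene.

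Region, treatment and time of day were fitted with lmFit and eBayes (trended variance) of limma 3.58.1 under R 4.3.3, then the interactions of region with treatment or time. The script was tested on simulated data. Contrasts with 5 forebrain regions used 80 arrays and left out 2 without a group. P-values were Benjamini-Hochberg adjusted over all probe sets, with 0.05 as the threshold. The number of arrays limits the precision. Named genes are the 15 in each direction with the largest difference among called genes whose arrays do not overlap, and the members of the gene lists. The regions, lists and rule were chosen with earlier results of these data known. Arrays of the same group correlated at up to 0.987 and all were kept. Alternatives changed normalization, floor, offset, filter, variance trend, scaling state, beta-actin ratio, replicate block and the arrays used.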

Additional observations from a re-analysis of the deposited data

Results flagged for a closer look

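The DR minus LC difference of Disp3 differed between treatments in a test of the interaction over the 3 treatments: that in ADX less that in Sham was -1.82 log2 units (limma adjusted p = 0.00462). Disp3 ran from 4.0 to 4.46 in DR and from 5.35 to 5.59 in LC of ADX rats, with 1 DR array at the floor, and from 5.10 to 5.57 in DR and from 4.44 to 4.97 in LC of Sham rats, with 4 arrays each. A probe set with no gene symbol had -1.59 for the same contrast (adjusted p = 0.0267). All 4 of its DR ADX arrays, all 4 of its DR pADX arrays and all 4 of its LC Sham arrays were at the floor, so its level there is known only as a bound. Neither Disp3 nor this probe set passed at a floor of 32 or with the replicate block.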

How the results depend on the processing

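The number of DR minus LC calls was 3778 as deposited, 1046 with median scaling, 486 with the scaling state as a term and 279 with the beta-actin 3' to 5' ratio as a term. As deposited 1.8% of calls were higher in DR, against 37.99% with the beta-actin term and 49.1% in the main comparison. In subsets of the arrays it was 12 in arrays at the common value (75% higher in DR), 105 in the others, 8 in Sham (25% higher), 20 in ADX (35%), 15 in pADX, 1362 in AM (48.83%) and 47 in PM arrays (29.79%), the AM and PM subsets being of equal size; of differences of 1 log2 unit or more there were 1 in arrays at the common value, 2 in Sham, 13 in ADX, 9 in pADX, 53 in AM and 26 in PM. Leaving out each array in turn gave 1095 to 2156 calls, 43 to 53 of them of 1 log2 unit or more, 12720 to 13161 for DR and 13143 to 13519 for LC against the forebrain, 1 to 23 for the interaction with treatment (23 without DR pADX PM replicate 2) and 0 to 1 for that with time of day. The interaction with treatment called 1 probe set as deposited, 14 with median scaling, 0 at a floor of 32, 4 with log2(value + 16), 1 with a mean above 5, and 5 with a scaling term, and that with time of day 1 as deposited. For most of these shifts the cause was not tested.

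The 30 named genes were recomputed under 43 alternatives: of 1287 values 1164 kept their call and 123 lost it, almost all in subsets of arrays (their sign is largely fixed by the rule that their arrays do not overlap), and no single array left out removed a named call. Of the 77 list and named genes called, 55 kept their call with the scaling term, 47 with the beta-actin term and 61 as deposited, where Pou3f3 and Kcnj16 turned negative; 13 lost it without at least 1 single array (Gata3, Slc6a2, Sncg, Hcrt, Oprk1, Gad1, Gabre, Pax8, Pou3f3, Kcnab1, Kcnd3, Kcnk2 and Ttr). Of the list genes not called, 23 passed without at least 1 single array.

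Same-numbered arrays of the regions deviated together with correlations from -0.0201 to 0.237 over 6 pairs of groups, so the numbers are not shown to pair arrays. With the replicate block 1174 probe sets were called (47 of the 48 large differences), and 0 for the interaction with treatment; of the 77 list and named genes 10 lost their call (Gata3, Maob, Slc6a2, Sncg, Hcrt, Oprk1, Pax8, Kcnd3, Kcnk2 and Ttr).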
